A study of Caenorhabditis elegans with 7 samples.

Results

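The sperm protein genes nspd-7, nspd-10, msp-78 and ssp-19 were examined in first-stage (L1) larvae of the nematode Caenorhabditis elegans. They were chosen by name from the annotation of the authors' value table, as genes known from spermatogenesis, and are 4 of the 959 genes named there. Larvae came from a strain whose ahr gene is labelled nonfunctional (ahr-mutant, 4 samples) and from the wild type (N2 in the series title, 3 samples). The sources used here give neither the allele nor the number of cultures nor the age in hours. In both strains eggs were collected, hatched on plates with E. coli in liquid and grown to L1, and total RNA of whole animals was labelled with Cy3 and hybridized to 1 array per sample. Where nothing says that samples came from separate cultures, a p-value reflects the spread among these 7 samples alone, which may be technical. In whole larvae, fewer cells of a type and less RNA per cell cannot be told apart.

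Sperm of this worm are crawling cells without flagella, built from proteins that are made almost wholly during spermatogenesis. In hermaphrodites that takes place in the last larval stage, in the germ line, while the germ line of a young L1 larva consists of primordial germ cells. The major sperm proteins (MSP) form the filaments that move the sperm, and when released they also act as a signal to oocytes. The ahr-1 gene encodes the worm's aryl hydrocarbon receptor, a transcription factor studied in the worm mostly in neurons.

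All 4 members belong to multigene families. The WBcel235 gene table of RefSeq holds 12 nspd genes, 10 of them protein-coding and 2 pseudogenes, and the coding ones are between 213 and 222 bases long. It holds 35 msp genes, 31 of them protein-coding, of which 28 have the same gene length of 384 bases. The ssp family has 13 genes, all protein-coding. Within these families the table of values names only 2 nspd genes, 1 msp gene and 1 ssp gene. msp-78 lies beside msp-79 on the chromosome, with ssp-36 next after it. nspd-7, nspd-10 and ssp-19 have no gene of their own family, and none of the other 2 families, as either nearest protein-coding neighbour. The probe sequences were not used here, and each gene is therefore reported as uncertain with respect to close relatives that its probe may also bind.

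The arrays carried 23232 spots each, of which 21942 to 22593 were above 0, with medians of 52277 to 90919 intensity units. The files give no detection call and no background column, so whether a member was detected cannot be read from them, and its place within the signals of its own array is given below. Markers for the larval germ line were not available as a check, since 0 of 20 listed germ cell genes, 0 of 9 embryo genes and 0 of 7 adult male genes are named. The file of ahr-mutant replicate 1 lists its spots in another order than the others. Its rank correlations with the other arrays were -0.01 to 0.04 as deposited, and 0.68 to 0.81 once 20033 spots had been placed. The placing sought likeness to those same arrays, so this rise was built in and is no check of it. Exact matches to the value table gave the positions of 380 spots. Signal alone put 342 of them in the same place and 0 elsewhere, after 1 segment that conflicted with such positions had been set aside. For nspd-7, nspd-10 and msp-78 its value was found by an exact match to the value table. For ssp-19 it was inferred from a long run of spots, in the order of printing, whose signals resembled those of the other arrays.

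The largest difference among the 4 genes was that of nspd-7, a member of the nematode-specific peptide family, group D, whose small proteins are known from sperm. Its signal was 259807, 386974, 1989026 and 211326 intensity units on the ahr-mutant arrays, against 80589, 45992 and 83291 on the wild-type arrays. These signals lay at the 83.6th, 86.3th, 99.3th and 79.9th percentile of the mutant arrays, and at the 59.9th, 44.6th and 58.9th of the wild-type arrays. Every mutant array was thus above every wild-type array, and ahr-mutant replicate 3 stood far above the other mutants. On the normalized log2 scale nspd-7 averaged 18.70 ± 1.38 in ahr-mutant larvae (SD, n = 4) and 16.30 ± 0.33 in wild-type larvae (SD, n = 3). The lowest mutant value was 1.22 above the highest wild-type value. The difference was 2.40 ± 0.67 (SE), or 5.28-fold higher in the mutants, and did not pass over all spots (limma adjusted p = 0.466, range over the alternatives 0.340 to 0.892; unadjusted p = 0.00532). The highest mutant array was 8.03-fold above the lowest, whereas 5.28-fold is the difference between strain means. A range over arrays and a difference of means are unlike measures. Without ahr-mutant replicate 3 the gene was 3.30-fold higher (log2 difference 1.72 ± 0.36, SE; limma adjusted p = 0.389, unadjusted p = 0.00122), so that array raised both the fold and its error.

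nspd-10, of the same peptide family, had 383078, 822767, 1456136 and 477445 intensity units on the ahr-mutant arrays, against 203695, 73863 and 327607 on the wild-type arrays. The percentiles were 89.2, 95.1, 98.0 and 92.2 on the mutant arrays and 78.5, 62.4 and 89.3 on the wild-type arrays. After normalization the strains overlapped, since ahr-mutant replicate 1 lay at 18.617 and wild type replicate 3 at 18.623. The means were 19.32 ± 0.68 in the mutants (SD, n = 4) and 17.62 ± 1.00 in the wild type (SD, n = 3). nspd-10 was 3.25-fold higher in the mutants, with a log2 difference of 1.70 ± 0.54 (SE), and did not pass (limma adjusted p = 0.549, range over the alternatives 0.372 to 0.892; unadjusted p = 0.0108). From lowest to highest array the wild type spanned 3.97-fold and the mutants 2.98-fold. The difference between the strain means was thus about as large as the full range within a strain, which is an unlike measure.

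msp-78 encodes a major sperm protein. It had 212454, 471489, 615280 and 257392 intensity units on the ahr-mutant arrays, against 158915, 77545 and 173517 on the wild-type arrays. Its percentiles ranged from 80.4 to 90.2 on the mutant arrays and from 63.8 to 78.9 on the wild-type arrays. The strains did not overlap, but the lowest mutant array was only 0.12 above the highest wild-type array on the log2 scale. The normalized means were 18.30 ± 0.46 in the mutants (SD, n = 4) and 17.23 ± 0.48 in the wild type (SD, n = 3). msp-78 had a log2 difference of 1.07 ± 0.39 (SE), that is 2.10-fold higher in the mutants, and did not pass (limma adjusted p = 0.608, range over the alternatives 0.417 to 0.893; unadjusted p = 0.0209). With the median of each block of spots subtracted it was 1.40-fold higher (unadjusted p = 0.116).

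ssp-19 belongs to the sperm-specific family, class P, of small proteins related to MSP, and was the 1 member with a lower mean in the mutants. Its signal was 72086, 75251, 60099 and 69242 intensity units on the ahr-mutant arrays, against 119337, 65508 and 83171 on the wild-type arrays. As deposited the strains overlapped, and after normalization every mutant array was lower, with a gap of 0.15 between the highest mutant and the lowest wild-type value. The percentiles were 34.0 to 55.0 on the mutant arrays and 58.6 to 69.3 on the wild-type arrays, so the spot was near the middle of the signals in both strains. ssp-19 averaged 15.89 ± 0.30 in the mutants (SD, n = 4) and 16.64 ± 0.31 in the wild type (SD, n = 3), with a log2 difference of -0.75 ± 0.33 (SE). The mutants were 1.68-fold lower, a difference that did not pass (limma adjusted p = 0.661, range over the alternatives 0.505 to 0.907; unadjusted p = 0.0496). In the mutants ahr-mutant replicate 1 was highest, at 16.30, and it is the array for which the authors' table gives no ssp-19 value. That gap is not particular to ssp-19, since 752 of the 1290 rows of that table lack this array and 538 have it. ssp-19 and spe-36, the spermatogenesis genes with lower ratios in the mutants, both lack it, and those with higher ratios have it. The oocyte gene egg-1, with lower ratios, lacks it too, and egg-2, with higher ratios, has it. In the whole table the rows with higher mutant ratios, counted without this array, also number 538. Whether these are the same rows was not tested.

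**Figure D1:**
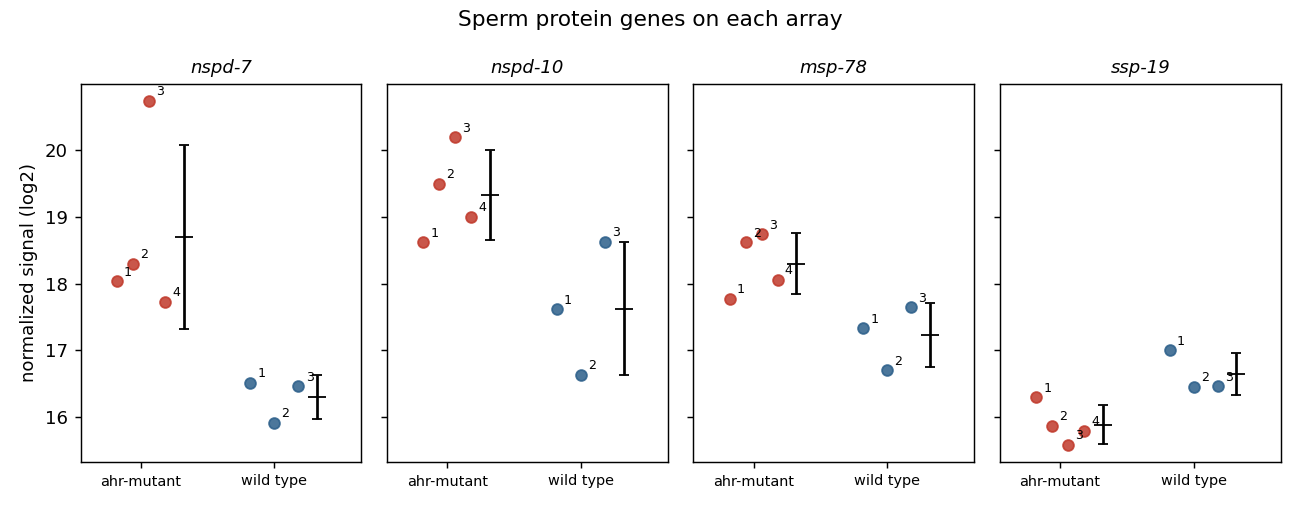
Normalized log2 signal of the 4 sperm protein genes (vertical axis) on each ahr-mutant array (red) and each wild-type array (blue), numbered by replicate, with the mean and SD in black. For nspd-7 and msp-78 all mutant arrays lie above all wild-type arrays, for ssp-19 all lie below, and for nspd-10 the strains overlap.

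For single genes the strain labels were exchanged in all 35 ways (exact permutation test, two-sided), which gave p = 0.0286 for nspd-7, the smallest p this design allows. The same exact test gave p = 0.0571 for nspd-10, for msp-78 and for ssp-19. Over all spots limma called 0 of the 4 members at an adjusted p under 0.05, where 2 of 22504 spots (0.00889%) were called. At an unadjusted p under 0.05 all 4 members were counted, against 7.55% of all spots. The members were 3 higher and 1 lower, where 4.03% of all spots were higher and 3.51% lower. That count is not independent evidence. The sources used here do not say how the table's rows were chosen, but its values come from these same samples, and 500 of its 781 named spots reached the same unadjusted threshold. Groups that did not overlap are also common in that table: of its 1014 spots with a value on all 7 arrays, 35.0% had all mutants higher and 44.0% all mutants lower, against 4.64% and 4.04% of all 17441 spots with 7 values. The 2 members with all mutants higher and the 1 with all mutants lower were drawn from such a table.

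The 3 genes with higher means had the same arrays at both ends of their order, while the other arrays changed places between genes. ahr-mutant replicate 3 was the highest array for nspd-7, nspd-10 and msp-78, and ahr-mutant replicate 2 came next for each. Wild type replicate 2 was the lowest array for each of the 3. For ssp-19, ahr-mutant replicate 3 was lowest and wild type replicate 1 highest.

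Neighbouring spots on the slide moved with these orders in part. For each array, the deviation of a spot from its own mean over the arrays was set beside the median deviation of the surrounding window of 21 by 21 spots. Around nspd-10 the window deviated by -0.45, 0.18, 0.54 and 0.30 on the mutant arrays, against 0.16, -0.73 and -0.32 on the wild-type arrays. The gene itself deviated by 0.02, 0.90, 1.60 and 0.40 on the mutant arrays, against -0.98, -1.96 and 0.03 on the wild-type arrays. Replicate 3 of the mutants and replicate 2 of the wild type were thus the extremes for the gene and for its window alike. The median of the 8 adjacent spots was also lowest on wild type replicate 2 (-0.46). It was highest on wild type replicate 1 (0.45), above ahr-mutant replicate 3 (0.36). Around msp-78 the window deviated by -0.22, 0.28, 0.45 and 0.07 on the mutant arrays, against -0.05, -0.59 and -0.11 on the wild-type arrays. msp-78 itself deviated by -0.07, 0.78, 0.90 and 0.22 on the mutant arrays, against -0.51, -1.14 and -0.19 on the wild-type arrays. The mutant arrays stood in the same order for the gene and for its window, from replicate 1 through 4 and 2 to 3. The 8 adjacent spots of msp-78 had another order, from replicate 4 (-0.26) through 1 (-0.12) and 3 (0.63) to 2 (0.66).

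nspd-7 deviated by 0.36, 0.63, 3.06 and 0.06 on the mutant arrays, against -1.16, -1.75 and -1.21 on the wild-type arrays. Its window deviated by -0.38, 0.18, 0.29 and 0.32 on the mutant arrays, against 0.13, -0.41 and -0.29 on the wild-type arrays. The gene thus departed from its surroundings by more than they themselves moved on each array except ahr-mutant replicate 4. On ahr-mutant replicate 3 the median of the 8 adjacent spots deviated by 0.97, between the window and the gene. For ssp-19 the window deviated by 0.11, -0.31, -0.62 and -0.06 on the mutant arrays, against 0.36, 0.22 and 0.19 on the wild-type arrays. The gene deviated by 0.09, -0.34, -0.62 and -0.41 on the mutant arrays, against 0.79, 0.24 and 0.25 on the wild-type arrays. On 5 of the 7 arrays, that is all but ahr-mutant replicate 4 and wild type replicate 1, ssp-19 was within 0.1 of its window. It was within 0.1 of the median of its 8 adjacent spots on 3 of the 7, since these deviated by only -0.10 on ahr-mutant replicate 3 and by -0.10 on wild type replicate 3.

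**Figure D2:**
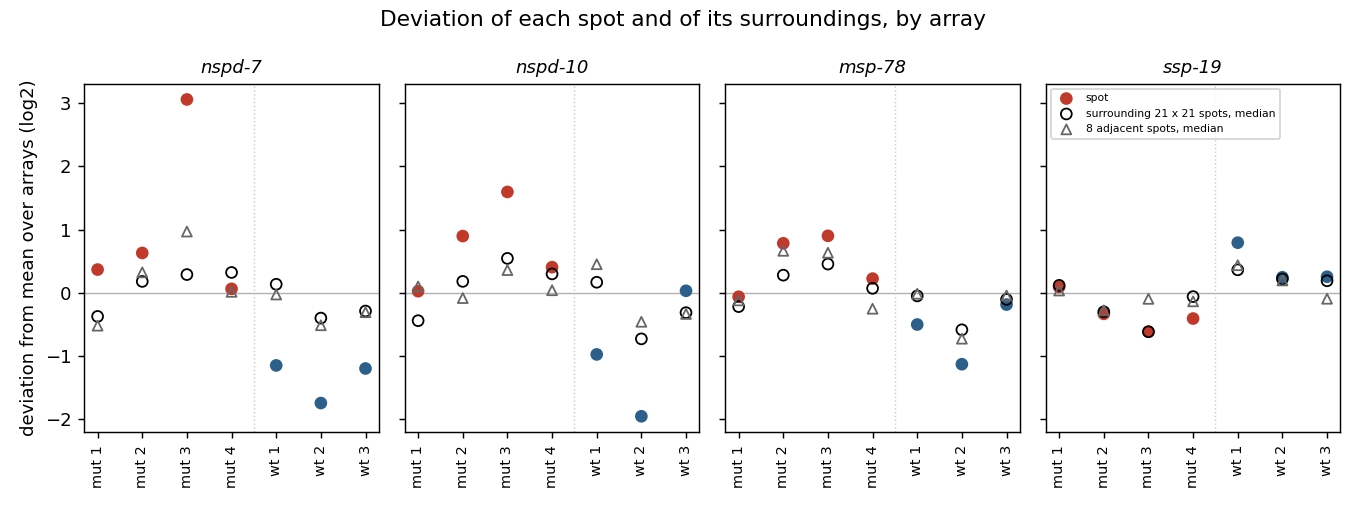
Deviation from the mean over the arrays, in log2 units, of each gene's own spot (filled, red for ahr-mutant and blue for wild type), of the median of the surrounding 21 by 21 spots (open circles) and of the median of the 8 adjacent spots (triangles). The nspd-7 spot departs from its surroundings on most arrays, while ssp-19 lies within 0.1 of the open circle on 5 of 7 arrays and of the triangle on 3.

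The slide position of the members went with their direction. The blocks of spots form 12 slide rows, and ssp-19 lies in slide row 2, nspd-7 in 7, nspd-10 in 8 and msp-78 in 9. Spots outside the authors' table in the same block had median strain differences of 0.24 for nspd-7, 0.44 for nspd-10, 0.60 for msp-78 and -0.41 for ssp-19 on the log2 scale. Each has the sign of its member. Over the whole slide row these medians were smaller in size, at 0.04 for nspd-7, 0.11 for nspd-10, 0.24 for msp-78 and -0.35 for ssp-19. The median over all spots tested was 0.02, so the slide rows of nspd-7 and nspd-10 differed little from it. After the local position adjustment, in which the median of the window is subtracted from each array, nspd-7 was 4.32-fold higher (log2 difference 2.11 ± 0.61, SE; limma adjusted p = 0.453). nspd-10 was 2.40-fold higher (1.26 ± 0.43, SE; limma adjusted p = 0.617) and msp-78 was 1.60-fold higher (0.68 ± 0.27, SE; limma adjusted p = 0.723). ssp-19 was 1.21-fold lower (-0.28 ± 0.27, SE; limma adjusted p = 0.884, unadjusted p = 0.329). The exact permutation test on the adjusted values gave p = 0.0571 for nspd-7 and nspd-10, and p = 0.0286 for msp-78 and ssp-19. Which members reach the smallest possible p thus depended on the adjustment. The strains stayed apart for nspd-7, msp-78 and ssp-19 and overlapped for nspd-10, as before the adjustment (3.97% of all spots with 7 values had all mutants higher and 3.59% all mutants lower). In this adjusted fit 2 of 22504 spots were called (0.00889%), 0 of them members, and 3 members kept an unadjusted p under 0.05 against 6.64% of all spots. How much of each difference belongs to the strain was not tested.

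The remaining spermatogenesis genes of the table were taken from a list of gene families and single genes. Besides the 4 members it named 8 genes, and 6 of these could be matched to a spot. Of the 6, 5 had higher and 1 had a lower mean in the mutants, with a median log2 difference of 0.83, against 0.02 over all spots tested and -0.52 over the 781 named spots. limma called 0 of the 6 over all spots, and 3 of them had an unadjusted p under 0.05, all 3 higher (against 4.03% of all spots). In the fit adjusted for position the 5 and 1 kept their directions, and 1 had an unadjusted p under 0.05, against 6.64% of all spots. The median was then 0.35, against 0.01 over all spots tested and -0.23 over the named spots. The 12 genes are those that the authors' table holds, with values of these same samples, so these directions are not independent evidence.

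spe-49, which encodes a sperm membrane protein needed for fertilization, had the second-largest difference of the 10 matched spermatogenesis genes, after nspd-7. Its normalized signal was 18.15, 20.11, 18.12 and 18.67 on the ahr-mutant arrays, against 17.36, 16.86 and 16.79 on the wild-type arrays. All mutant arrays were higher, as for 35.0% of the table's spots on 7 arrays, with replicate 2 and not replicate 3 at the top. The gene was 3.39-fold higher (log2 difference 1.76 ± 0.51, SE; limma adjusted p = 0.494) and 3.80-fold higher with the local position adjustment (limma adjusted p = 0.201). Spots outside the table in its block had a median difference of -0.14. The median deviation of its 8 adjacent spots was on average 0.04 higher on the mutant arrays. That average covers medians of -0.64, 1.08, -0.12 and -0.40 on the mutant arrays, against 0.115, -0.26 and -0.05 on the wild-type arrays. On ahr-mutant replicate 2 the gene deviated by 2.10, its window by 0.31 and its adjacent spots by 1.08.

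spe-42, which also encodes a sperm protein needed for fertilization, was 1.84-fold higher in the mutants, and 1.29-fold with the local position adjustment. smz-1, which encodes a PDZ domain protein of sperm meiosis, was 1.88-fold higher, and 1.35-fold with that adjustment. spe-18, needed to assemble MSP into the fibrous bodies of developing sperm, was 1.71-fold higher, and 1.26-fold with that adjustment. These 3 genes lie in slide rows 11 and 12, where block medians outside the table were 0.41 to 0.43. sss-1, of the sperm-specific family, class S, was 1.29-fold higher and was dim, at percentiles of 10.2 to 15.3 on the mutant arrays and 2.66 to 11.0 on the wild-type arrays. spe-36, which encodes a secreted sperm protein needed for fertilization, was 1.51-fold lower and lay in slide row 6, with a block median of -0.32. None of these 5 passed, with limma adjusted p between 0.617 and 0.735.

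**Figure D3:**
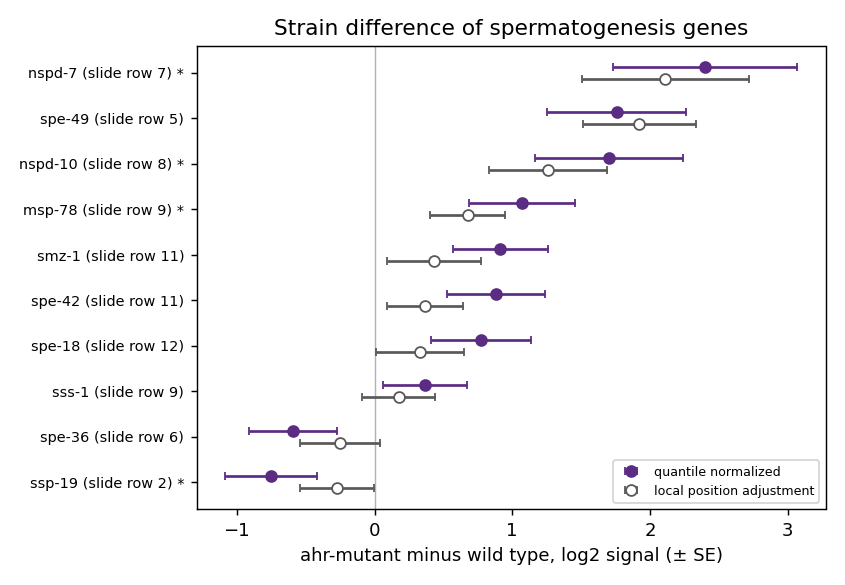
Strain difference (ahr-mutant minus wild type, log2 signal, with SE) of the 10 spermatogenesis genes that were matched to a spot, quantile normalized (filled) and with the local position adjustment (open). An asterisk marks the 4 members, and the slide row stands beside each name. nspd-7, spe-49 and nspd-10 have the largest differences in both, and most of the others move towards 0 with the adjustment.

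The authors' deposited table gives a ratio of signals on each array, and it also covers the genes that had no matched spot. In each listed gene with a ratio on every array, the array in the middle of the order stands at exactly 1.00. A ratio of 1.00 thus marks the middle of the row. In the authors' deposited table nspd-7 had ratios of 1.64, 1.71, 8.21 and 1.00 on the ahr-mutant arrays, against 0.527, 0.349 and 0.492 on the wild-type arrays. nspd-10 had 1.07, 1.61, 2.66 and 1.00 on the ahr-mutant arrays, against 0.589, 0.248 and 0.857 on the wild-type arrays. By these ratios all mutant arrays of nspd-10 were higher, whereas the normalized signals of the strains overlapped. msp-78 had 1.10, 1.72, 2.09 and 1.00 on the ahr-mutant arrays, against 0.853, 0.483 and 0.842 on the wild-type arrays. ssp-19 had 0.732, 0.545 and 0.720 on ahr-mutant replicates 2 to 4, against 1.71, 1.09 and 1.08 on the wild-type arrays.

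Over all spermatogenesis genes of the table, ratios were higher in the mutants on average for 10 genes and lower for 2, namely ssp-19 and spe-36. Of all 1290 rows in the authors' deposited table, 538 (41.7%) had higher mutant ratios, counted without ahr-mutant replicate 1. The spermatogenesis genes were counted with every mutant value present. The 2 genes without a matched spot were among the 10 with higher ratios. nspb-11, of the nematode-specific peptide family, group B, had ratios of 1.21, 1.17, 1.30 and 1.00 on the ahr-mutant arrays, against 0.523, 0.665 and 0.735 on the wild-type arrays. gsp-3, a sperm protein phosphatase gene, had 1.00, 1.28, 1.19 and 1.88 on the ahr-mutant arrays, against 0.856, 0.643 and 0.755 on the wild-type arrays. The mutants were all higher for both genes, and neither was tested here. Such separation is common in that table: by normalized signal, 35.0% of its spots on all 7 arrays had all mutants higher and 44.0% all mutants lower.

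**Figure D4:**
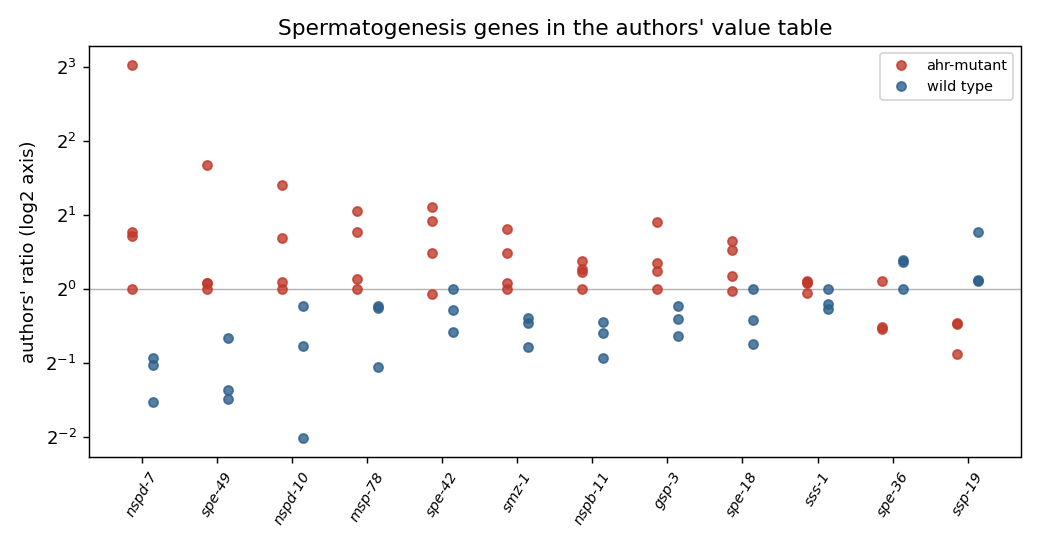
The authors' deposited ratio (log2 axis) of the 12 spermatogenesis genes in their value table, 1 point per array, ahr-mutant in red and left, wild type in blue and right. Genes are ordered by the difference of the strain means, with nspd-7 at the left end and ssp-19 at the right end, and the highest single point is nspd-7 on ahr-mutant replicate 3 at 8.21.

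Genes with the most similar pattern were sought among 780 other named spots, by Pearson's r over the 7 arrays. This is a description over 7 points that share the split by strain and the position effects above. nspd-7 deviated by 3.06 on ahr-mutant replicate 3, so that 1 array weighs heavily in each r of this gene. The closest to nspd-7 were clec-126 (r = 0.984), best-7 (0.980) and Y105C5A.24 (0.976). The closest to nspd-10 were tdrd-3 (r = 0.988), Y53F4B.27 (0.983) and msp-78 (0.980). The closest to msp-78 were cnd-1 (r = 0.989), F19H6.6 (0.986) and Y53F4B.27 (0.982), with nspd-10 in place 4. The closest to ssp-19 were rpl-4 (r = 0.980), mvb-12 (0.977) and bath-3 (0.968). nspd-7 and nspd-10, of 1 peptide family, had r = 0.875, and nspd-10 came in place 73 among the genes closest to nspd-7. The genes closest to nspd-7, nspd-10 and msp-78 lay in slide rows 5 to 12 and those closest to ssp-19 in slide rows 1 to 4.

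The direction of each member was the same in all 16 other ways of processing. Folds ranged from 3.30 to 6.61 for nspd-7, from 2.31 to 4.60 for nspd-10, from 1.40 to 2.43 for msp-78 and from 1.20 to 1.93 for ssp-19. Since the genes come from a table rich in strain differences of these samples, the steady sign is no sign of stability. The widest range was that of nspd-7, and both of its ends came from leaving out 1 mutant array.

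**Figure D5:**
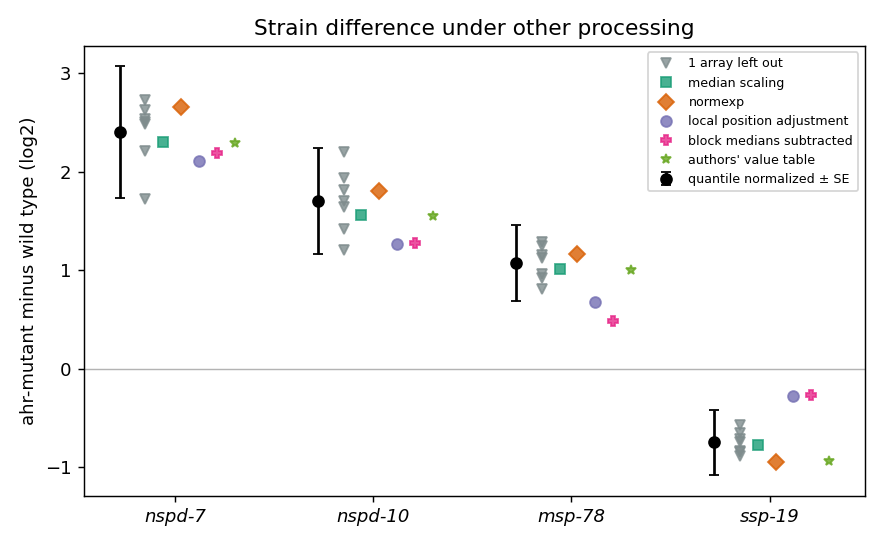
Strain difference (ahr-mutant minus wild type, log2) of the 4 members as quantile normalized with SE (black) and under other processing: 1 array left out, median scaling, normexp, the position adjustments and the authors' table. No value crosses 0, and both position adjustments lie nearer to 0 than the black points for all 4 genes.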

How the data were processed

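RNA of 7 samples was read on 1-colour arrays. The authors deposited 1 linear intensity per spot, and the sources used here name no scanner or background treatment. The authors' deposited value table holds a ratio: by its fit to the array files, a scaled signal over a constant of its row. Its 1290 rows were matched to spots by value within 0.0001 on the log2 scale (1080 rows). Symbols come from the platform annotation, and gene families from RefSeq's table for WBcel235. The members and lists were chosen with earlier results of these data known.

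Spots that were blank, at 0 or negative counted as missing. Quantile normalization was applied to the log2 intensities of whole columns, and the rows of ahr-mutant replicate 1 were then placed in the order of the other arrays, by segments with 100 spots or more that correlated at 0.7 or above. A segment in which exact table values pointed elsewhere was set aside. The moderated test of limma 3.58.1 (R 4.3.3; two-sided, no covariate) was run on the 22504 spots with at least 2 values in each strain, with Benjamini-Hochberg adjustment and a threshold of 0.05. Errors of differences are standard errors. The number of arrays limits the precision. Scripts were tested on simulated data. The local position adjustment uses windows of 21 by 21 spots. Named were the members, other listed genes of the table, and the 3 genes closest to each member. The planned comparison of sequences was not run.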

Additional observations from a re-analysis of the deposited data

Results flagged for a closer look

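In each of 10 genes the gap between the highest or lowest mutant value and its nearest neighbour was divided by the range of the 4 mutant values and held against Dixon's critical value, which chance passes in about 1 of 20 groups. It was passed by 1 gene. For spe-36, ahr-mutant replicate 2 lay at 17.21 on the log2 scale against 16.58, 16.58 and 16.62 in the remaining mutants, a share of 0.923 of the range, and within the range of the wild type (17.20 to 17.52). The gap of nspd-7 on ahr-mutant replicate 3 was larger in size, 2.44 against 0.58, but was 0.811 of a wider range and did not pass.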

How the results depend on the processing

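The strain differences of nspd-7, nspd-10, msp-78 and ssp-19 kept their direction and did not pass under any of the 15 alternatives that were tested with limma, and the authors' value table gave the same directions. Leaving out 1 array at a time gave log2 differences of 1.72 to 2.72 for nspd-7, 1.21 to 2.20 for nspd-10, 0.81 to 1.28 for msp-78 and -0.89 to -0.57 for ssp-19. The count of spermatogenesis genes past the threshold was 0 under each of these. The count of spots past the threshold over the whole array was 2, and it was 2 with block medians subtracted, with the local position adjustment and with spots that have a value on every array. It was 0 with median scaling, with quantile normalization after placing replicate 1, with normexp, with the conflicting segment placed too and with spots at 0 kept as the lowest signal, and 0 (0 to 0) without any 1 of the 7 arrays. The cause was not tested. No paired analysis was possible because the labels give the 2 strains no sample number in common, and the replicate numbers in the text only name samples in the order of deposit. The files hold no background signal, so how far dim spots such as sss-1 stand above background could not be told.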

Other observations

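Of 16 listed genes of oocytes and yolk the table names 2, egg-1 and egg-2, a pair of related genes for oocyte surface proteins to which sperm bind. They had opposite directions. egg-1 was 1.53-fold lower in the mutants (log2 difference -0.61 ± 0.32, SE; limma adjusted p = 0.688), with normalized signals of 15.02, 14.67, 14.54 and 14.67 on the ahr-mutant arrays, against 15.29, 15.05 and 15.68 on the wild-type arrays. With the local position adjustment it was 1.27-fold lower. egg-2 had no matched spot. In the authors' deposited table its ratios were 1.00, 1.38, 1.83 and 1.58 on the ahr-mutant arrays, against 0.952, 0.738 and 0.565 on the wild-type arrays, so that all mutant arrays were higher. By normalized signal, 35.0% of that table's spots on all 7 arrays had all mutants higher and 44.0% all mutants lower. The table names none of 4 listed genes of the gonad sheath and spermatheca.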
